A study of Mus musculus with 4 samples.

Results

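The expression of 10 immediate early genes was examined in the testes of mice of 2 sterile male genotypes. The genes were Fos, Fosb, Jun, Junb, Jund, Egr1, Atf3, Ier2, Dusp1 and Gadd45b, chosen by name with earlier results of these data known. Their counts set beside shares of all genes are therefore descriptions, not independent tests. Every Affymetrix 430A probe set annotated to 1 of them alone was used. This gave 13 of the 22626 probe sets, and 10 of the 12393 genes, that the arrays measured. All animals were adult males, and the 4 groups were XX/Sry seminiferous tubules, XX/Sry whole testis, W/Wv seminiferous tubules and W/Wv whole testis, with 1 array each. XX/Sry mice are chromosomally XX and develop testes because they carry Sry as a transgene; its promoter and the strain were not given in the sources used here. W/Wv males carry 2 mutant alleles of the receptor gene Kit and were bought as a WB by B6 cross. Both kinds of testis are known to be nearly without germ cells; of 12 germ cell markers, 8 lay below background on each XX/Sry array, 6 in W/Wv tubules and 1 in W/Wv whole testis. To obtain tubules, the tunica was removed, the tissue was digested for 40 min at 37 °C with collagenase (5 mg/ml) and tubules were collected on a 70 µm strainer; the labels name no digestion for whole testis. The labels do not say whether tubules and whole testis shared animals, or whether animals were pooled.

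Immediate early genes are those that a cell switches on first after a stimulus, within minutes, because the factors that start their transcription are already present and need only be phosphorylated. Fos and Jun proteins pair into the transcription factor AP-1, EGR1 is a zinc finger factor, and DUSP1 is a phosphatase that shuts off the MAP kinases through which many of these genes are induced. Their mRNAs are short-lived, and enzymatic dissociation of tissue is known to raise several of them. In bulk samples such as these, fewer cells of a type and less RNA per cell cannot be told apart.

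The values are MAS5 signals, an array brightness on a linear scale, and each fold is a ratio of single arrays with no replicate check. A background bound was set on each array as the highest signal of 27 bacterial control probe sets, between 46.1 and 76.3. Median signals over all probe sets lay between 157 and 183. Relative to the mean of the arrays, the median log2 deviation of the 18 spike controls was -0.17 in tubules and -0.18 in whole testis of XX/Sry, and 0.46 in tubules and -0.09 in whole testis of W/Wv. As signs of RNA integrity, Gapdh had a 3' over 5' signal ratio of 0.930 in tubules and 0.733 in whole testis of XX/Sry, and of 0.823 in tubules and 0.974 in whole testis of W/Wv. The same ratio for actin was 1.85 in tubules and 1.41 in whole testis of XX/Sry, and 1.58 in tubules and 1.74 in whole testis of W/Wv. The part of these differences in the results was not tested. Precision is limited by the number of arrays.

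The first comparison set tubules against whole testis within each genotype. Fos, Jun, Egr1 and Gadd45b rose at least 2-fold in tubules of both genotypes, and 0 of the 10 genes fell. Fos stood furthest out, 9.79-fold higher in XX/Sry tubules and 18.6-fold higher in W/Wv tubules. The other 3 rose between 2.07-fold and 3.80-fold, while Junb, Jund, Atf3, Ier2, Dusp1 and Fosb did not pass in both genotypes. Over all 12393 genes 1.32% rose and 5.74% fell by the same rule, each gene being represented by its brightest probe set. Counting only folds, or lower limits of folds, that the background bounds allow, the same 4 members rose, against 0.452% of all genes, and 0 fell, against 2.23%. The median log2 ratio of the 10 genes was 0.98 in XX/Sry and 1.34 in W/Wv, against -0.02 and -0.15 over all genes. Taken by single pairs, 5 members were at least 2-fold higher in XX/Sry tubules, where 9.23% of genes were, and 0 at least 2-fold lower, where 14.1% were. In W/Wv tubules 7 were at least 2-fold higher (7.7% of genes) and 0 lower (18.3%). By direction alone, 8 of the 10 were higher in XX/Sry tubules (48.9% of genes) and 2 lower (51%), and all 10 were higher in W/Wv tubules (41.5%) and 0 lower (58.4%); Fosb, one of the 2, lay below the bound on both XX/Sry arrays. Centring the arrays on the spike controls left 2 members past the rule, Fos and Jun, and averaging all probe sets of a gene also left 2, Fos and Egr1.

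**Figure D1:**
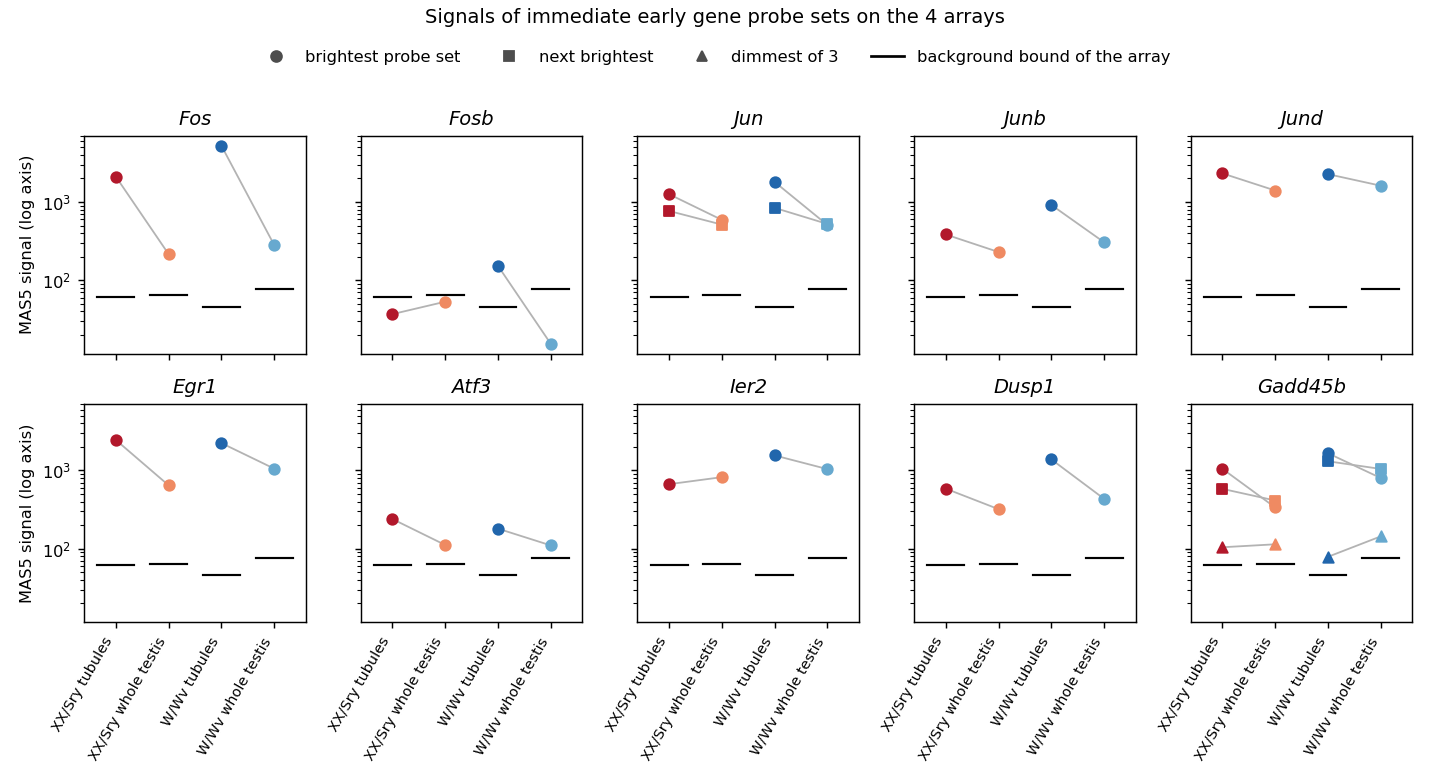
MAS5 signal on a log axis for each of the 13 probe sets on the 4 arrays, 1 panel per gene; grey lines join tubules to whole testis of the same genotype and black bars mark the background bound of each array. Fos had the largest ratio in each genotype, with 2117 in XX/Sry tubules against 216 in XX/Sry whole testis and 5265 in W/Wv tubules against 283 in W/Wv whole testis. Fosb stood above the bound only in W/Wv tubules.

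Among the genes of AP-1, Fos, on chromosome 12, encodes a leucine zipper protein that must pair with a Jun protein to bind DNA. Its signal was 2117 in XX/Sry tubules against 216 in XX/Sry whole testis, and 5265 in W/Wv tubules against 283 in W/Wv whole testis. Both tubule arrays lay far above both whole testis arrays. Ordered by ratio from the top, Fos had rank 50 of the 12393 genes in the XX/Sry pair and rank 7 in the W/Wv pair. Fosb, a close relative of Fos on chromosome 7, was dim. Its signal was 36.9 in XX/Sry tubules against 53.2 in XX/Sry whole testis, both below the background bound, so no fold is given for that pair. In W/Wv it was 152.6 in tubules against 15.4 in whole testis, where it lay below the bound, so that it was at least 2.0-fold higher in tubules. Fosb was thus measurable on 1 array of the 4.

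Jun, on chromosome 4, encodes the partner of Fos that can also bind DNA as a pair of its own. Its brighter probe set had 1257 in XX/Sry tubules against 591 in XX/Sry whole testis, 2.13-fold higher, and 1803 in W/Wv tubules against 508 in W/Wv whole testis, 3.55-fold higher. The other Jun probe set ran the same way with less contrast. It had 768 against 514 in XX/Sry and 841 against 524 in W/Wv, 1.49-fold and 1.61-fold higher in tubules, and did not pass. Junb, on chromosome 8, encodes a Jun protein that is itself strongly inducible. It had 384 in XX/Sry tubules against 229 in XX/Sry whole testis and 917 in W/Wv tubules against 305.5 in W/Wv whole testis, 1.68-fold and 3.0-fold higher. It passed in W/Wv alone, and the difference between genotypes was not tested. Jund, on chromosome 8 too, is the Jun gene that most cells express without a stimulus. It had 2320 in XX/Sry tubules against 1402 in XX/Sry whole testis, and 2269 in W/Wv tubules against 1614 in W/Wv whole testis, 1.66-fold and 1.41-fold higher. Among the brightest probe sets of the AP-1 members it had the smallest ratio in W/Wv, which was -0.06 on the log2 scale after centring on the spike controls.

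Egr1, on chromosome 18, is induced by the same kinase routes as Fos. It had 2454 in XX/Sry tubules against 646 in XX/Sry whole testis, 3.80-fold higher, and 2236 in W/Wv tubules against 1054.5 in W/Wv whole testis, 2.12-fold higher. Unlike for Fos, the larger ratio was in XX/Sry, and as deposited the whole testis arrays differed more than the tubule arrays did. After centring on the spike controls the Egr1 log2 ratio of XX/Sry over W/Wv was 0.76 in tubules and -0.62 in whole testis. Atf3, on chromosome 1, encodes a stress-induced factor of the ATF/CREB family. It had 239 in XX/Sry tubules against 111 in XX/Sry whole testis and 180 in W/Wv tubules against 110.0 in W/Wv whole testis, 2.15-fold and 1.64-fold higher. It was measured above background on all 4 arrays but passed 2-fold in XX/Sry alone. Ier2, on chromosome 8, encodes a small nuclear protein induced by growth factors. It had 667 in XX/Sry tubules against 820 in XX/Sry whole testis, 1.23-fold lower, and 1553 in W/Wv tubules against 1038 in W/Wv whole testis, 1.5-fold higher. Of the members measured above background on all arrays, it was the only one whose brightest probe set lay on opposite sides of 1 in the genotypes.

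Dusp1, on chromosome 17, had 584 in XX/Sry tubules against 320 in XX/Sry whole testis and 1383 in W/Wv tubules against 433 in W/Wv whole testis, 1.83-fold and 3.19-fold higher. Its ratios ran close to those of Junb. Gadd45b, on chromosome 10, encodes a stress protein that binds and activates a kinase upstream of p38 and JNK. The brightest of its 3 probe sets had 1048 in XX/Sry tubules against 336 in XX/Sry whole testis, 3.12-fold higher, and 1657 in W/Wv tubules against 799 in W/Wv whole testis, 2.07-fold higher. The probe sets of this gene disagreed. The next had 581 against 412 in XX/Sry and 1308 against 1044 in W/Wv, 1.41-fold and 1.25-fold higher in tubules. The dimmest had 104 against 114 in XX/Sry and 78.7 against 144 in W/Wv, 1.09-fold and 1.82-fold lower in tubules.

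**Figure D2:**
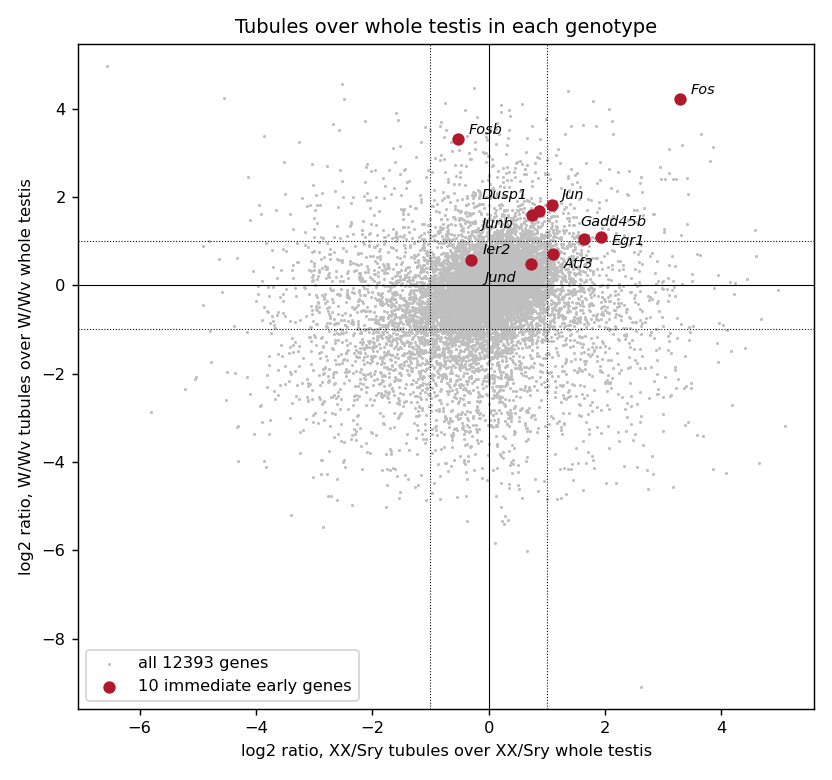
Log2 ratio of tubules over whole testis in XX/Sry (horizontal axis) and in W/Wv (vertical axis) for all 12393 genes in grey and the 10 immediate early genes in red, with dotted lines at 2-fold. Fos lies at 3.29 and 4.22, Jun, Egr1 and Gadd45b lie past 2-fold on both axes, and Fosb, below the background bound on both XX/Sry arrays, and Ier2 lie left of 0.

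An additive fit of preparation and genotype to the log2 signals of all 4 arrays used the 2 genotypes as repeats of the preparation contrast, with 1 residual degree of freedom. By limma's moderated test, adjusted by Benjamini-Hochberg over 22626 probe sets, 4 of the 13 member probe sets were higher in tubules and 0 lower, where 0.239% of all probe sets were higher and 0.977% lower. Fos differed by 3.75 ± 0.29 on the log2 scale (SE of the fit, adjusted p = 0.00115). Egr1 differed by 1.51 ± 0.27 (limma adjusted p = 0.0254), the brighter Jun probe set by 1.46 ± 0.28 (limma adjusted p = 0.0297) and the brightest Gadd45b probe set by 1.35 ± 0.27 (limma adjusted p = 0.0416). These are the same 4 genes as by the 2-fold rule, which used the same 4 arrays and so is no separate check. Dusp1 at 1.27 ± 0.30 had an adjusted p of 0.0767 and Junb at 1.16 ± 0.33 one of 0.139 by limma, neither past 0.05. At an unadjusted p under 0.05, 8 of the 13 were higher, where 5.69% of all probe sets were, and 0 lower, where 8.24% were. In this fit any interaction adds to the error, and arrays are assumed independent. Without a trend of the variance on signal, limma called 0 probe sets of 22626 (478 higher and 1483 lower at an unadjusted p under 0.05). Over the settings of the fit the limma adjusted p of Fos ranged between 5.24e-05 and 0.544. The fit was not run on arrays centred on the spike controls. With a constant of 61.8 added to all signals 1 member probe set, that of Fos, was called.

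The 4 arrays took the same order for 4 genes. By their brightest probe sets Fos, Junb, Dusp1 and Gadd45b were highest in W/Wv tubules, then XX/Sry tubules, then W/Wv whole testis, and lowest in XX/Sry whole testis, an order that 4.84% of all genes had. The order was picked out after the values were seen. Neither of the other Gadd45b probe sets had it, while the dimmer Jun probe set did. By its brighter probe set Jun kept both tubule arrays on top but had XX/Sry above W/Wv whole testis. Egr1, Jund and Atf3 were highest in XX/Sry tubules. In all, 8 of the 10 genes had both tubule signals above both whole testis signals, against 17.2% of all genes, the exceptions being Fosb and Ier2. The 8 became 7 after centring on the spike controls, without Jund, and 7 with the mean of all probe sets, without Gadd45b.

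The promoters are shown of the 4 genes whose brightest probe sets shared this order, a group picked after the values were seen. They come from RefSeq on build GRCm38.p6, whose promoter table held 8 of the 10 genes, and each stretch is the 200 bases before the gene's start, on the gene's strand. Capitals mark the core TGACG of the cyclic AMP response element (CRE) on either strand, at which ATF/CREB factors bind, and the TATA box TATAAA on the gene's strand.
Fos, chr12:85473690-85473889, plus strand: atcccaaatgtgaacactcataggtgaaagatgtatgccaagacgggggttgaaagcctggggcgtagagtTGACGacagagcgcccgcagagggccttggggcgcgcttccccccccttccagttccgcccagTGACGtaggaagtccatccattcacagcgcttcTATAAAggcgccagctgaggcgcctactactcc
Junb, chr8:84978749-84978948, minus strand: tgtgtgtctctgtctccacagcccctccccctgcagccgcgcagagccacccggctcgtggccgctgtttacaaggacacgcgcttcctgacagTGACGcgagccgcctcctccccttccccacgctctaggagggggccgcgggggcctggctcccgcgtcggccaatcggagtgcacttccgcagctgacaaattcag
Dusp1, chr17:26508473-26508672, minus strand: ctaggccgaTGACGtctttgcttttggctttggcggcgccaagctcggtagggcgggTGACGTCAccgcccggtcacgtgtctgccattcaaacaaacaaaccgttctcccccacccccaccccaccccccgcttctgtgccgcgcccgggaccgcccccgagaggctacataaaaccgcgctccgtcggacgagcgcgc
Gadd45b, chr10:80929891-80930090, plus strand: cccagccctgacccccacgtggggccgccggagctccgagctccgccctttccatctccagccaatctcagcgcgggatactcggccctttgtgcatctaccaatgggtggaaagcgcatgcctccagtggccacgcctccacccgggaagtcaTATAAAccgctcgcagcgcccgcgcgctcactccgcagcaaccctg

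In the 250 bases before the start, TGACG occurred on either strand in 5 of the 8 member windows (Fos, Fosb, Junb, Atf3 and Dusp1), against 17.8% of 32851 RefSeq windows. Fosb and Atf3 thus held TGACG without the shared array order, and Gadd45b had the order without TGACG. A link between sequence and order was not tested. Fos held 2 copies, the nearer one starting 66 bases before the start. Dusp1 held the full palindrome TGACGTCA, 143 to 136 bases before the start, in which the cores on both strands overlap; 1.55% of windows hold it. TATAAA was present in 2 of the 8 windows (Fos and Gadd45b), against 7.59% of all. The AP-1 site TGANTCA was in 0 of the 8 windows (6.75% of all) and the CArG box, at which serum response factor binds, in 0 of the 8 (1.47% of all), which says only that these letters are not in this window.

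The second comparison set XX/Sry against W/Wv within each preparation. By the rule of 2-fold in both preparations 0 of the 10 genes differed, where 1.98% of all genes were higher and 3.22% lower in XX/Sry. In tubules 5 genes had XX/Sry signals lower by 2-fold or more: Fos, Fosb, Junb, Ier2 and Dusp1, where 10.4% of all genes were, and 0 were as much higher, where 11.2% were. In whole testis Gadd45b alone was at least 2-fold lower (13.4% of genes); Fosb alone had a ratio past 2-fold upward (8.1%), with both of its signals below the bound. By direction alone, 7 genes were lower and 3 higher in XX/Sry tubules (50.1% and 49.8% of genes), and 7 lower and 3 higher in XX/Sry whole testis (56.4% and 43.5%). Ier2 alone had both XX/Sry signals below both W/Wv signals, as 18.7% of genes did. The median log2 ratio of the 10 genes was -0.94 in tubules and -0.36 in whole testis, against 0.00 and -0.10 over all genes.

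Fos was 2.49-fold lower in XX/Sry tubules (2117 against 5265) and in whole testis 1.31-fold lower (216 against 283). Junb was 2.39-fold and 1.33-fold lower, Dusp1 2.37-fold and 1.35-fold lower, and Ier2 2.33-fold and 1.27-fold lower. These 4 genes thus had nearly equal ratios to one another in each preparation. For Fosb the tubule signal was lower in XX/Sry by at least 2.50-fold, and in whole testis it was below the bound in both genotypes. Gadd45b was lower in XX/Sry by 1.58-fold in tubules and 2.38-fold in whole testis, and its next probe set, at 2.25-fold and 2.53-fold lower, passed in both. Its dimmest probe set had ratios of 1.32-fold higher in tubules and 1.26-fold lower in whole testis.

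The other 4 genes did not reach 2-fold in either preparation. Jun was 1.43-fold lower in XX/Sry tubules and 1.16-fold higher in XX/Sry whole testis. Egr1 was 1.10-fold higher in XX/Sry tubules and 1.63-fold lower in whole testis of XX/Sry. Jund was 1.02-fold higher and 1.15-fold lower, and Atf3 1.33-fold and 1.01-fold higher. In the additive fit 0 of the 13 member probe sets differed by genotype after adjustment by limma, 6 of them being lower at an unadjusted p under 0.05, where 4.8% of all probe sets were, and 0 higher, where 3.93% were; 0.11% of all probe sets were called higher and 0.0398% lower after adjustment. The largest of these differences was that of the second Gadd45b probe set, -1.26 ± 0.26 on the log2 scale (limma adjusted p = 0.110).

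The spike controls had a median log2 ratio of -0.66 for XX/Sry over W/Wv tubules, against -0.13 for XX/Sry over W/Wv whole testis. Centred on them, the XX/Sry over W/Wv log2 ratio in tubules was -0.69 for Fos, -0.63 for Junb, -0.62 for Dusp1 and -0.59 for Ier2, none past 2-fold, and 1.03 for Atf3, past 2-fold upward. Jun was at 0.11, in place of -0.52 as deposited, and 1 member, Fosb, remained at least 2-fold lower. Centring on array medians or quantile normalisation left Fos, Junb, Dusp1 and Ier2 past 2-fold.

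**Figure D3:**
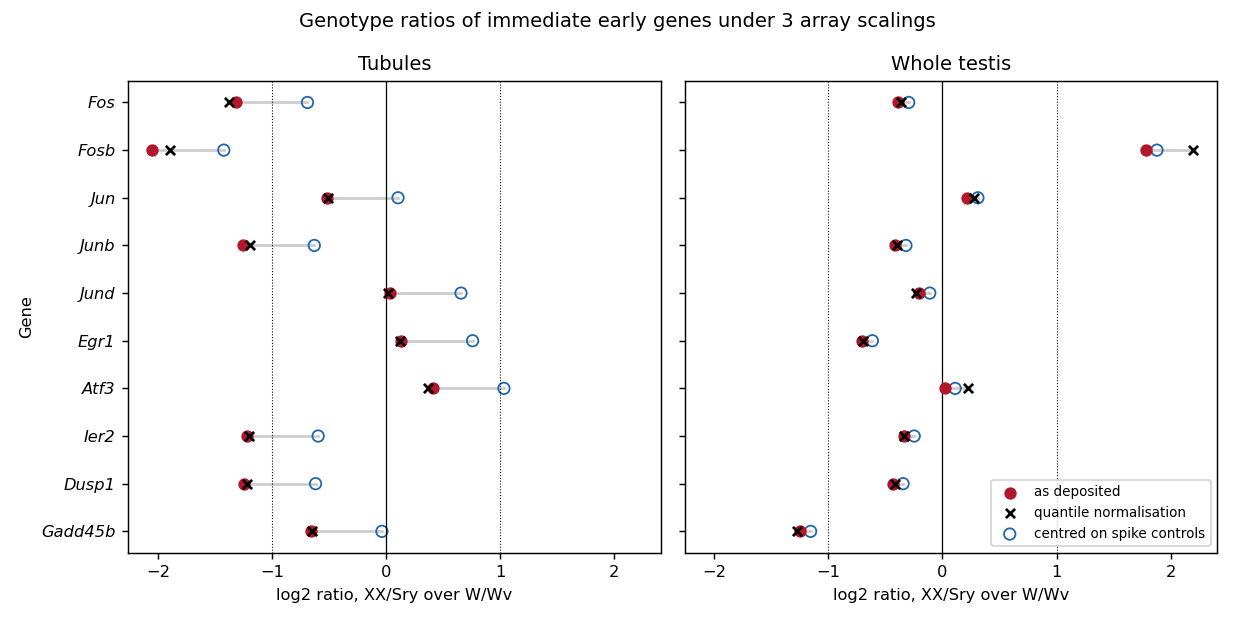
Log2 ratio of XX/Sry over W/Wv for each gene in tubules (left) and whole testis (right), as deposited, after quantile normalisation and after centring the arrays on the spike controls, with dotted lines at 2-fold. In tubules Fos, Junb, Ier2 and Dusp1 lie between -1.31 and -1.22 as deposited and between -0.69 and -0.59 on the spike controls.

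Related genes were taken from 6 lists chosen with earlier results of these data known. Of the 123 genes measured, 2 rose at least 2-fold in tubules of both genotypes, where 1.32% of all genes did. Another 2 had ratios at least 2-fold lower, where 5.74% of all genes did. By the folds that the background bounds allow, the same 2 rose, against 0.452% of all genes, and 0 fell, against 2.23%. Those that rose were Gadd45a, a relative of Gadd45b, and Hspa5, a chaperone of the endoplasmic reticulum. Gadd45a had 570 in XX/Sry tubules against 271 in XX/Sry whole testis and 586 in W/Wv tubules against 238 in W/Wv whole testis, 2.10-fold and 2.46-fold higher. Hspa5 was 2.14-fold and 2.65-fold higher by its brighter probe set, while the log2 ratio of the other was -0.19 in XX/Sry and 0.70 in W/Wv. Those with lower ratios, named after their values were seen, were Trib1 and Map3k5, both below the bound on both tubule arrays. Trib1 was below it in XX/Sry whole testis too, so that only the W/Wv pair gives a limit, at least 1.25-fold lower in tubules. For Map3k5 the bounds allow tubule signals lower by at least 1.43-fold in XX/Sry and 1.18-fold in W/Wv.

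The 16 other AP-1 and ATF/CREB genes had median log2 ratios of -0.14 in XX/Sry and 0.05 in W/Wv, and 0 of them passed. Among these, Fosl1, a Fos relative, lay below the bound on all 4 arrays by its brighter probe set, and Fosl2 was 1.12-fold higher in XX/Sry tubules and 2.19-fold lower in W/Wv tubules. The 23 other early transcription factor genes had medians of -0.22 and -0.14 and 0 passed. Nr4a1, an early nuclear receptor gene, was 1.38-fold lower in XX/Sry tubules and 1.83-fold higher in W/Wv tubules, Egr2 was 1.29-fold and 2.11-fold lower in tubules by its brighter probe set, and Myc was above the bound only in W/Wv tubules. The other Egr2 probe set had ratios the other way, 2.53 in XX/Sry and 0.55 in W/Wv on the log2 scale, and was above the bound only in W/Wv tubules.

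The 39 other early genes of signalling, RNA decay and secretion had medians of 0.02 and 0.26, with 1 higher (Gadd45a) and 1, Trib1, with lower ratios. Zfp36, whose protein speeds the decay of AU-rich mRNAs, had 529 in XX/Sry tubules against 311 in XX/Sry whole testis and 887 in W/Wv tubules against 313 in W/Wv whole testis, 1.70-fold and 2.83-fold higher. Of genes picked after their values were seen, Socs3, an inhibitor of cytokine signalling, was 1.74-fold higher in XX/Sry tubules and 5.91-fold higher in W/Wv tubules, and Ccn1, a secreted matrix protein gene, 1.71-fold and 2.85-fold higher. Both had the larger ratio in W/Wv, as Fos, Junb and Dusp1 did. Socs3 has 3 probe sets and Ccn1 has 2, and only the brightest of each is given. The 8 other MAP kinase phosphatase genes had medians of 0.17 and 0.06, with 0 past the rule, and Dusp6, also picked after its values were seen, was 1.53-fold and 2.32-fold higher. The 18 kinases and factors upstream of the members had medians of -0.02 and 0.11 with lower ratios for Map3k5 alone, and the 19 heat shock and oxidative stress genes -0.01 and 0.06 with 1 higher. Hspa1a, the inducible heat shock protein gene and likewise picked afterwards, was 3.47-fold higher in XX/Sry tubules and 1.19-fold higher in W/Wv tubules, the reverse order to Fos.

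**Figure D4:**
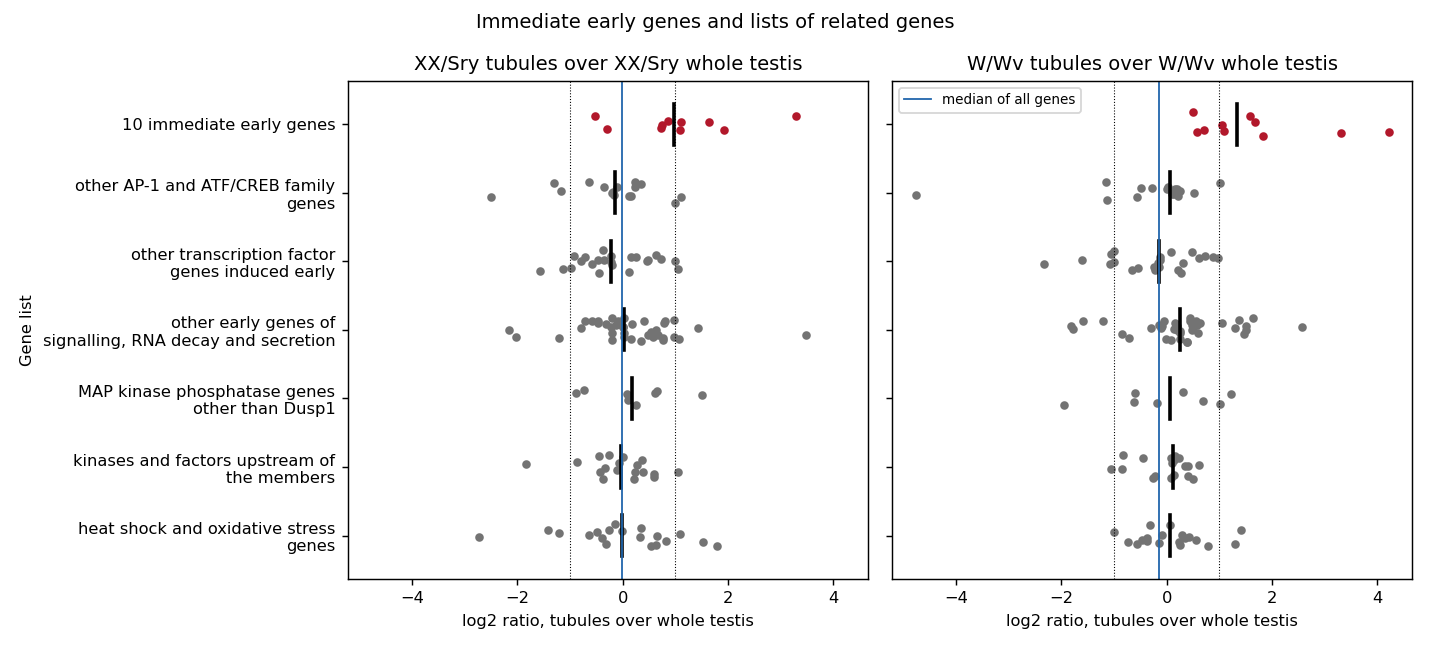
Log2 ratio of tubules over whole testis in XX/Sry (left) and in W/Wv (right) for the 10 immediate early genes in red and the genes of 6 related lists in grey, with black bars at list medians, a blue line at the median of all genes and dotted lines at 2-fold. The 10 genes have medians of 0.98 and 1.34, while those of the lists lie between -0.22 and 0.26.

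The genes most like Fos were sought among 10827 other genes above the bound on at least 1 array, by the root mean square difference of log2 signals over the 4 arrays, each centred on its own mean. The nearest were Phgr1 (difference 0.54), Gcc2 (0.62), Adam24 (0.63), Eya2 (0.67) and Epha2 (0.68). In both whole testis arrays all 5 lay below the bound, so their ratios are not fixed. The nearest member to Fos was Jun, at 1.2. To the mean profile of the 10 genes the nearest were Egln1 (0.08), Hbegf (0.09), Arap3 (0.10), Slc26a7 (0.11) and Sort1 (0.12). Egln1, Hbegf and Arap3 have 2 probe sets each and Sort1 has 3, and only the brightest of each was compared. Arap3 was above the bound only in W/Wv tubules, so its distance is not fixed, and the mean profile itself includes Fosb, above it on the same 1 array. Egln1, an oxygen-sensing hydroxylase gene, had 2089 in XX/Sry tubules against 1106 in XX/Sry whole testis and 4104 in W/Wv tubules against 1268 in W/Wv whole testis. Hbegf, a growth factor gene, had 165 against 72.7 in XX/Sry and 237 against 79.3 in W/Wv. Its whole testis signals lay close to the bounds of those arrays, 63.9 in XX/Sry and 76.3 in W/Wv. Jun (0.17), Dusp1 (0.20) and Junb (0.21) were the members nearest that mean profile, and Fos, at 1.22, the farthest. These likenesses rest on 4 arrays.

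Markers of the cells of the testis also differed between preparations. Of 17 markers of Sertoli cells, which are among the somatic cells of the tubule, 0 passed. Their median log2 ratios were 0.18 in XX/Sry and 0.50 in W/Wv. Their summed signals were 133371 in XX/Sry tubules against 123888 in XX/Sry whole testis, and 155265 in W/Wv tubules against 111756 in W/Wv whole testis. Of 8 Leydig cell markers 6 fell in tubules, the summed signal being 32774.5 against 76446.9 in XX/Sry and 16704 against 53217.2 in W/Wv. Of 14 macrophage markers 11 fell, 10 of them by the folds that the bounds allow (6 of the Leydig markers), with sums of 4206 against 18549 in XX/Sry and 5493 against 14774 in W/Wv. The 9 peritubular myoid markers had medians of 0.25 and 0.64 with 0 past the rule, and summed signals of 24565 against 23718 in XX/Sry and 28036 against 20034.5 in W/Wv. Of 10 endothelial markers Pecam1 and Vwf had ratios at least 2-fold higher in tubules, but Pecam1 lay below the bound in both whole testis arrays, which allows at least 1.30-fold in XX/Sry and at least 1.67-fold in W/Wv; the sums of the 10 were 2011 against 2084 in XX/Sry and 1784.5 against 1373 in W/Wv. The 12 germ cell markers summed to 1037 against 1039 in XX/Sry and 1046.5 against 5946 in W/Wv. Their median log2 ratio was 0.20 in XX/Sry and -2.32 in W/Wv. Below the bound lay 8 of them on each XX/Sry array, 6 in W/Wv tubules and 1 in W/Wv whole testis. The 3 blood markers summed to 810 against 431 in XX/Sry and 363 against 394 in W/Wv. The blood markers disagreed, Alas2 making up most of their sum. In tubules Alas2 was 2.49-fold higher in XX/Sry and 1.38-fold higher in W/Wv. Hbb-b2 was at least 1.74-fold and 2.01-fold lower in tubules, and Hba-a1 lay below the bound on every array. No marker was listed at 0. The part of these shifts in the ratios of the immediate early genes was not tested.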

How the data were processed

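The data were 4 Affymetrix Mouse Expression 430A arrays, hybridised for 16 hours, 1 for each group. The deposited values are array intensity: MAS5 signals made with Microarray Suite 5.0, per the labels; neither a scaling target nor detection calls were among the sources used here. They were used as deposited. Of 22690 probe sets, 64 controls were set aside. The platform annotation gave 1 symbol to 20380 of the 22626 others, several to 691 and none to 1555. Genes were represented by the probe set with the highest mean log2 signal.

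Following the series' design text, a gene passed if both pairs differed in one direction by 2-fold or more. If the dimmer signal was under its array's bound, the fold was taken against the larger of both bounds and written as a minimum, and left out if the brighter signal was under its own bound too. The additive fit used limma 3.58.1 in R 4.3.3 (variance prior with a trend on mean signal and 9.98 degrees of freedom), checked on simulated data. The simulated errors were independent, with a spread set by mean signal and no interaction. That check therefore cannot test these assumptions of the fit. The other steps used Python 3.11.15. All members are named; from related lists, genes past the rule whose brighter signal in each pair reached the array median are named, together with Fosl1, Fosl2, Egr2, Nr4a1, Zfp36 and Myc. Members and lists were chosen with earlier results of these data known. Alternatives covered array scaling, low signals, probe sets, thresholds and the variance prior; those for single pairs, related lists, double ratios, array order and list counts by the folds that the bounds allow were added after seeing the data.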

Additional observations from a re-analysis of the deposited data

Results flagged for a closer look

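The deposited signals of Fosb gave log2 ratios of tubules over whole testis of -0.53 in XX/Sry and 3.31 in W/Wv, and of XX/Sry over W/Wv of -2.05 in tubules and 1.79 in whole testis, each pair differing by -3.84. Its signal exceeded background in W/Wv tubules alone, so these directions are not fixed. With dim signals raised to the bound the ratios were -0.07 and 1.0 for tubules over whole testis, and -1.32 and -0.26 for XX/Sry over W/Wv, the same direction in both preparations. The others named here were above the bound on all arrays. Ier2 had tubule over whole testis log2 ratios of -0.30 in XX/Sry and 0.58 in W/Wv, a difference of -0.88. For XX/Sry over W/Wv, the brighter Jun probe set had -0.52 in tubules and 0.22 in whole testis (difference -0.74), Jund 0.03 and -0.20 (difference 0.24), Egr1 0.13 and -0.71 (difference 0.84) and the dimmest Gadd45b probe set 0.40 and -0.34 (difference 0.74). With 1 array per group none of these differences was tested.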

How the results depend on the processing

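The 4 members that rose in tubules of both genotypes became 2 after centring on the spike controls (Fos and Jun), 2 with the mean of all probe sets (Fos and Egr1), 7 at 1.5-fold and 1 at 3-fold (Fos), and 7 in the W/Wv pair alone against 5 in the XX/Sry pair alone. With the constant added 3 members rose in both genotypes, without Gadd45b, and after quantile normalisation 5, with Atf3. By genotype 1 member, Gadd45b, was lower in both preparations at 1.5-fold. Members higher in the XX/Sry pair numbered 3 with the mean of all probe sets, 8 at 1.5-fold and 3 at 3-fold. Members lower in XX/Sry tubules numbered 1 on the spike controls and 1 at 3-fold, and in XX/Sry whole testis 0 by the probe set mean, 2 at 1.5-fold and 0 at 3-fold. The 1 member with a double ratio past 2-fold (Fosb) became 2 after median centring and 2 after quantile normalisation, both with Fos, 3 on the spike controls, and 8 past 1.5-fold. Related genes higher in tubules (2) became 0 on the spike controls, 1 with the constant added, 9 at 1.5-fold and 0 at 3-fold; those lower (2) became 1 after median centring, 1 after quantile normalisation, 6 on the spike controls, 0 with the constant, 0 with dim signals raised to the bound, 10 at 1.5-fold and 1 at 3-fold. In the additive fit by limma, member probe sets higher in tubules (4) became 1 with the constant and 0 without a trend. Over all probe sets the 54 higher and 221 lower in tubules became 102 higher after quantile normalisation (298 lower), 14 and 127 with the constant, 107 and 353 among probe sets above the bound on at least 2 arrays, and 0 and 0 without a trend (478 and 1483 at an unadjusted p under 0.05); the 25 higher and 9 lower by genotype became 73 and 20, 12 and 5, 66 and 19, and 0 and 0 (555 and 934 unadjusted) under the same settings. The XX/Sry over W/Wv ratio of Fosb in whole testis was -0.26 with dim signals raised to the bound, against 1.79 as deposited. Causes were not tested. Of 60 member ratios of tubules over whole testis (10 genes under 6 alternatives), 57 in XX/Sry and 54 in W/Wv kept direction and side of 2-fold. Some of these could not change. Raising dim signals to the bound alters Fosb alone, and averaging probe sets alters Jun and Gadd45b alone. Signal over background limits every ratio of Fosb. The labels give no replicate numbers to use as a block; the additive fit already sets tubules against whole testis within each genotype.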

Other observations

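Several early and stress genes outside the 10, chosen after their values were seen, had unequal ratios in the genotypes, none tested. Gadd45g, a relative of Gadd45b, had 466 in XX/Sry tubules against 510.5 in XX/Sry whole testis and 1371 in W/Wv tubules against 440 in W/Wv whole testis. Btg2, an antiproliferative gene, had 300.2 against 321 in XX/Sry and 1060 against 515 in W/Wv. Both were high on the W/Wv tubule array alone. Hspa1b, an inducible heat shock protein gene, had 1614 in XX/Sry tubules against 557 in XX/Sry whole testis and 662 in W/Wv tubules against 494.5 in W/Wv whole testis. Plk2, a polo-like kinase gene, had 575 against 214 in XX/Sry and 376 against 270.1 in W/Wv. These 2 were highest on the XX/Sry tubule array. Btg2 has 2 probe sets and Hspa1b 3, and only the brightest of each is given. Genes of the same lists that were lower in tubules, likewise picked afterwards, had unequal ratios too. Sik1 was 1.25-fold lower in XX/Sry and 3.43-fold lower in W/Wv, Nqo1 2.68-fold and 1.30-fold, and Hmox1 2.30-fold and 1.48-fold. Of the 123 related genes, 63 were higher in XX/Sry tubules (48.9% of all genes) and 72 in W/Wv tubules (41.5%).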
